A study of Mus musculus with 8 samples.

Results

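A set of 10 genes of prostaglandin and leukotriene biology was examined in liver ECs after loss of LRP1, and each gene matched 1 row of a table of 22520 protein-coding genes by its symbol. The genes are Pla2g4a, Ptgs1, Ptgs2, Ptges, Ptgis, Ptgds, Hpgd, Ptger2, Ptger4 and Alox5. The table holds 4 WT libraries and 4 LRP1 eKO libraries of cells that the labels call liver microvesicular, from C57BL/6 mice at postnatal day 14. Both groups carried the floxed Lrp1 allele on both chromosomes (Lrp1 f/f). LRP1 eKO mice also carried 1 copy of Cdh5-CreER, an inducible Cre recombinase driven by the promoter of VE-cadherin, which is used to delete genes in ECs, and WT littermates carried none. The deletion and the transgene therefore cannot be told apart, and the time of induction is not given in the sources used here. The paper's methods describe microvascular ECs picked with beads against PECAM-1, and nothing states whether a library came from 1 mouse or from a pool. The p-values below measure the spread between these libraries.

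Prostaglandins are lipid signals made from arachidonate, a fatty acid stored in membrane phospholipids. Phospholipase A2 releases arachidonate, a cyclooxygenase converts it to prostaglandin H2, and terminal synthases turn this unstable intermediate into PGE2, prostacyclin or PGD2. ECs are known for making prostacyclin, which relaxes vessels and keeps platelets quiescent. PGE2 acts through the EP receptors, and prostaglandins are removed from the circulation by uptake into cells and oxidation by 15-hydroxyprostaglandin dehydrogenase. In a parallel branch, 5-lipoxygenase turns arachidonate into leukotrienes, mostly in leukocytes.

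In LRP1 eKO libraries, Ptgs2 (the inducible cyclooxygenase COX-2), Ptges (the inducible PGE2 synthase) and Hpgd (the enzyme that inactivates prostaglandins) rose. Pla2g4a (cytosolic phospholipase A2) and Ptgis (prostacyclin synthase) fell. Hpgd had the largest ratio among these 5 genes, 2.79 times the WT mean, and Ptgis the smallest change, to 83.0% of the WT mean. Values were compared as log2(signal + 1) with limma over all genes that reached a signal of 1 in at least 4 libraries, and a gene was called at a Benjamini-Hochberg adjusted p below 0.05. Of the 10 genes, 6 passed this filter on low signals, and of these 3 were called higher, 2 were called lower and 1 was not called. Among all 11391 genes tested, 19.0% were called higher and 22.2% lower. With the additional requirement of a 2-fold change, 0 of the 6 genes were called, against 0.869% of all genes tested for higher and 0.790% for lower signals. The signals of the 5 called genes did not overlap between WT and LRP1 eKO libraries, which held in the upward direction for 20.0% and in the downward direction for 22.5% of all genes tested.

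**Figure D1:**
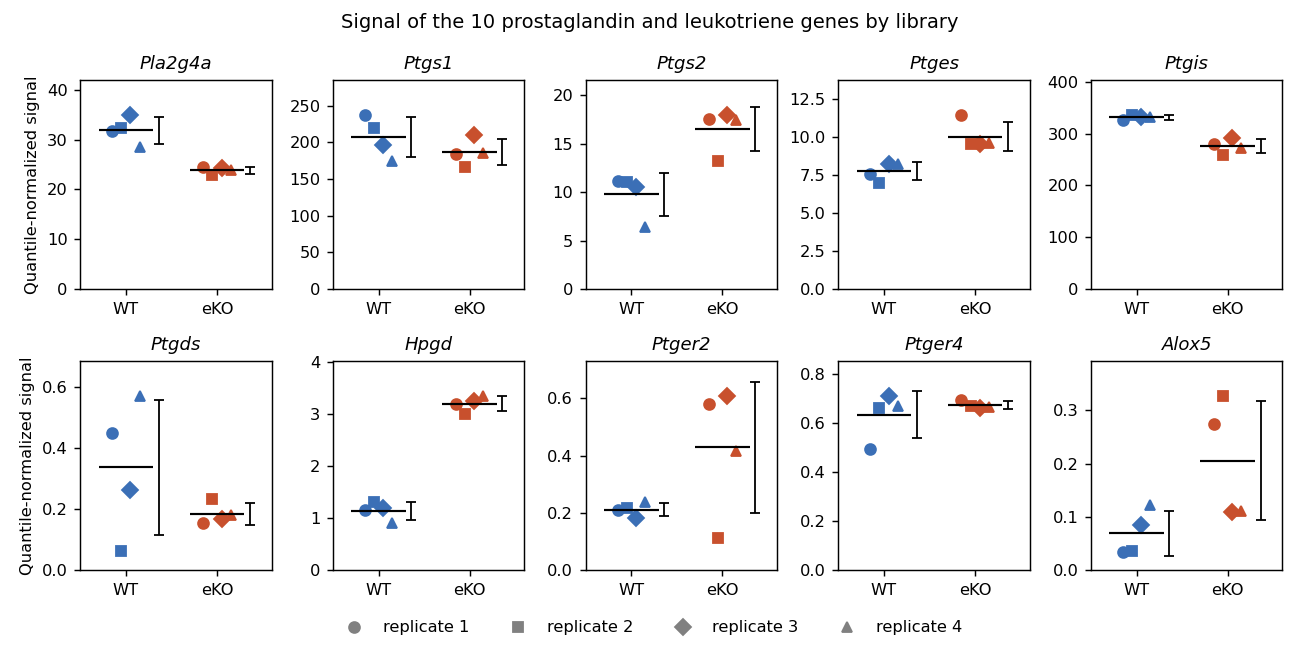
Quantile-normalized signal (y axis, linear, from 0) of the 10 genes in 4 WT and 4 LRP1 eKO (eKO) libraries. Each symbol is 1 library, horizontal lines are group means and vertical bars are ± 1 SD (n = 4). Ptgs2, Ptges and Hpgd were higher and Pla2g4a and Ptgis lower in every eKO library, while the groups of the other genes overlapped.

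Promoter windows of the genes that rose are shown with that of Pla2g4a, which fell and lies beside Ptgs2, since these are the genes on which the comparison turns. The windows come from RefSeq on GRCm38.p6, run from 250 bases before to 50 bases after an annotated start, and are written 5′ to 3′ on the strand of the gene. Capitals mark matches, on either strand, to 7 motifs. The core of the cAMP response element was searched as TGACGT, while the letters of the E-box were CACGTG. A C/EBP site was read as TTGCNNAA, whereas an AP-1 site had to be TGANTCA. The GC box was taken as GGGCGG, and for the TATA box the search used TATAAA. The NF-kB consensus was the last motif. The Ptgs2 window is chr1:150099781-150100080 on the plus strand, and that of Pla2g4a is chr1:149961241-149961540 on the minus strand. The Ptges window is chr2:30903248-30903547 on the minus strand, and that of Hpgd is chr8:56294302-56294601 on the plus strand.
Ptgs2: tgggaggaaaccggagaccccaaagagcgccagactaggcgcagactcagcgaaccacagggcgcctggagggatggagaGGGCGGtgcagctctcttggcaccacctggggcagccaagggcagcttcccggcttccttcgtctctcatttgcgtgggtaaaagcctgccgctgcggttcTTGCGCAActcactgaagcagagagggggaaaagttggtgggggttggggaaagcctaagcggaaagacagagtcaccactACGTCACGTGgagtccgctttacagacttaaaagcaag
Ptges: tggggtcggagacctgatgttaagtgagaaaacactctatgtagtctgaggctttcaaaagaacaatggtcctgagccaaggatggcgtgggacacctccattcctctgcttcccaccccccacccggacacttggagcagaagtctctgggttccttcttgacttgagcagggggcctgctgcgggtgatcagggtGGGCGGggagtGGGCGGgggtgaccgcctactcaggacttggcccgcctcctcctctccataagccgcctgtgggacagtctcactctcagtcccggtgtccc
Hpgd: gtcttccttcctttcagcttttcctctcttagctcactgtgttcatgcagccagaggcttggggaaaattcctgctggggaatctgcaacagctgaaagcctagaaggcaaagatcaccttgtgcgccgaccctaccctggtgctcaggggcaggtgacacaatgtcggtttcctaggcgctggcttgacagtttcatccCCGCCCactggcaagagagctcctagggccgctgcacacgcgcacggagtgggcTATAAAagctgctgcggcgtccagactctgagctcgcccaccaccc
Pla2g4a: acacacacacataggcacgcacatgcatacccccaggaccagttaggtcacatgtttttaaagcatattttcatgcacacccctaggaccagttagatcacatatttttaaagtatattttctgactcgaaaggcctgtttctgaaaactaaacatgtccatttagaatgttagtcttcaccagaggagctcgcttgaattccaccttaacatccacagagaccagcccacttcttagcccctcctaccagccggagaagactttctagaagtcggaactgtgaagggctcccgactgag

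In the Ptgs2 window, the cAMP response element core begins at base 13 and the E-box at base 17 after the annotated start, so that these matches share bases. A C/EBP match begins 69 bases and a GC box 170 bases before the start. The Ptges window holds a pair of GC boxes. It lies inside the GENCODE gene, downstream of the GENCODE start of Ptges at 30929863. The Hpgd window holds 1 GC box, which begins 50 bases before the annotated start, and a TATA box match at base 5 after it. This RefSeq start lies upstream of the GENCODE start of Hpgd at 56294585. The window shown for Pla2g4a holds none of the 7 motifs, and another, internal start of this gene has a window with 1 TATA box match. Of 32851 promoter windows in the table, 7.5% hold the cAMP response element core, 7.2% the E-box, 10.8% the C/EBP site, 7.8% the AP-1 site, 35.7% a GC box, 13.6% the TATA box and 4.5% the NF-kB consensus. The windows of Ptgs2, Ptges and Hpgd thus share the GC box, which is also found in those of Ptger4 and Alox5. RefSeq windows were matched for 9 of the 10 genes, all but Ptgis.

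The cells were checked against their label before the genes were compared. Lrp1, the targeted gene, had a signal of 65.5 ± 13.3 in WT and 4.41 ± 1.65 (SD, n = 4 each) in LRP1 eKO libraries, and no library of 1 group reached the range of the other. Markers of ECs were present but low. Pecam1 averaged 2.09 ± 0.416 in WT and 3.02 ± 0.911 (SD, n = 4 each) in LRP1 eKO libraries, and Cdh5 averaged 1.86 ± 0.430 and 3.70 ± 1.34. Most markers of mesothelium, the cell layer that covers the liver, were high in every library. Msln averaged 1020 ± 125 in WT and 1300 ± 51.0 (SD, n = 4 each) in LRP1 eKO libraries. Upk3b averaged 396 ± 19.5 in WT and 370 ± 25.7 (SD, n = 4 each) in LRP1 eKO libraries. By its mean signal over all 8 libraries, Msln lay above 99.8%, Upk3b above 99.1%, Pecam1 above 56.0% and Cdh5 above 56.8% of the genes in the table. Other EC genes ranked from 44.9% (Tek) and 45.2% (Erg) to 71.5% (Egfl7), 77.8% (Flt1) and 82.5% (Eng). The lowest mesothelial genes by rank were Muc16 (60.8%) and Krt19 (88.0%). Whether the signal is scaled by gene length is not stated, so that such ranks between genes are approximate. The libraries thus went against an EC label by most of these markers, and they are called liver EC libraries below only because the study does so. In such bulk libraries, fewer cells of a type and less RNA per cell cannot be told apart.

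The summed signals of the marker lists varied between libraries as follows. The 8 mesothelial genes summed to between 2320 and 2800 in WT and between 3000 and 3320 in LRP1 eKO libraries, the 6 smooth muscle genes to between 1500 and 1570 and between 1850 and 1940, and the 10 stellate and fibroblast genes to between 1040 and 1100 and between 942 and 1050. The 10 pan-endothelial genes summed to between 41.8 and 49.0 in WT and between 58.8 and 79.4 in LRP1 eKO libraries, and the 8 sinusoidal endothelial genes to between 7.84 and 11.7 and between 8.38 and 33.0. The 14 macrophage and Kupffer cell genes summed to between 174 and 273 in WT libraries, to 761, 698 and 414 in LRP1 eKO replicates 1, 3 and 4, and to 64.5 in LRP1 eKO replicate 2. Skeletal muscle genes summed to 53.4 in WT replicate 4, to between 31.4 and 34.9 in the other WT libraries and to at most 7.14 in LRP1 eKO libraries. Hepatocyte genes summed to between 137 and 151 in WT and between 148 and 167 in LRP1 eKO libraries, but most of this sum was Ass1, which rose from a mean of 91.0 to 138. The other 3 tested hepatocyte genes fell by more than 2-fold, Alb from 20.8 to 6.15, Apoa1 from 18.6 to 7.90 and Serpina1a from 12.1 to 2.12 (limma adjusted p between 2.5e-06 and 5.1e-05). Erythroid genes summed to 57.9 in WT replicate 2, to between 24.6 and 29.1 in the other WT libraries and to between 14.6 and 24.7 in LRP1 eKO libraries. Alas2 made up nearly all of this sum except in WT replicate 2, where it was 26.5. The globin genes Hba-a1 (8.51), Hba-a2 (11.1), Hbb-bs (7.52) and Hbb-bt (4.20) had signal in that library and were listed at 0 in all others. Sums of the other lists also rest on their most abundant genes. Of 8 tested mesothelial genes 2 were called higher (Msln and Upk1b), and of 10 tested macrophage genes 1 was called higher (Csf1r) and 1 lower (Cd14). Over all genes tested, 19.0% were called higher and 22.2% lower. Calls for higher signal went to 5 of 6 tested smooth muscle, 3 of 8 pan-endothelial, 1 of 4 sinusoidal endothelial and 2 of 2 neutrophil genes. In the stellate and fibroblast list, 1 of 7 tested genes was called higher and 3 lower. All 4 tested skeletal muscle genes were called lower. Platelet (at most 11.9), neutrophil (at most 7.07), mast cell (at most 0.412) and lymphocyte genes (at most 0.143) were low in every library. Clec4f, a gene that defines Kupffer cells, was listed at 0 in the 4 WT libraries and Timd4 in all but 1 of the 8 libraries. Ly6g and Retnlg of the neutrophil list, Ppbp, Gp9 and Gp6 of the platelet list, Fcer1a, Tpsb2 and Prss34 of the mast cell list, and Cd79b, Cd3g and Cd2 of the lymphocyte list were listed at 0 throughout. The part of these cell types in the results below was not tested.

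For the release of arachidonate, Pla2g4a on chromosome 1 (149829618 to 149961290, GRCm38) was examined. It encodes the calcium-dependent phospholipase A2 that prefers phospholipids carrying arachidonate. Its signal was 31.7, 32.4, 35.0 and 28.4 in WT replicates 1 to 4 and 24.4, 22.9, 24.2 and 23.8 in LRP1 eKO replicates 1 to 4. Every LRP1 eKO library was lower than every WT library, and the spread was narrower in LRP1 eKO (SD 0.655) than in WT libraries (SD 2.71). The log2 fold change was -0.40 with a standard error of 0.062 (limma adjusted p = 0.00083), which corresponds to 74.8% of the WT mean signal.

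The cyclooxygenases differed in their response. Ptgs1 on chromosome 2 (36230426 to 36252272) encodes COX-1, which most tissues express without a stimulus. Its signal was 238, 220, 196 and 175 in WT replicates 1 to 4 and 184, 167, 210 and 185 in LRP1 eKO replicates 1 to 4. The groups overlapped, and a difference of Ptgs1 was not detected (log2 fold change -0.15, 95% interval -0.37 to 0.07, limma adjusted p = 0.26). Ptgs2 on chromosome 1 (150100031 to 150108227) encodes COX-2, which is induced by cytokines, growth factors and cAMP.

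The Ptgs2 signal was 11.1, 11.0, 10.5 and 6.42 in WT replicates 1 to 4 and 17.5, 13.2, 18.0 and 17.4 in LRP1 eKO replicates 1 to 4. The lowest library of each group was the one that stood apart elsewhere, WT replicate 4 with the most skeletal muscle signal and LRP1 eKO replicate 2 with the least macrophage signal. Ptgs2 rose by 0.72 on the log2(signal + 1) scale with a standard error of 0.16 (limma adjusted p = 0.0060). Without both of these libraries, which were left out after seeing the data, the log2 fold change was 0.65 (limma adjusted p = 1.2e-05). Separated groups give p = 0.029 in an exact permutation test (two-sided), the lowest value possible with 4 libraries in each group.

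Ptgs2 and Pla2g4a are neighbors. Their annotated starts lie 138.7 kb apart, the genes are read away from each other, and 0 of the 3 genes annotated between them are protein-coding. Across this interval of chromosome 1, the gene on one side was higher and that on the other side was lower in each LRP1 eKO library than in any WT library.

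Of the terminal synthases, Ptges on chromosome 2 (30889471 to 30929863) encodes the microsomal PGE2 synthase that is coupled to COX-2. Its signal was 7.61, 6.97, 8.21 and 8.27 in WT replicates 1 to 4 and 11.5, 9.53, 9.58 and 9.61 in LRP1 eKO replicates 1 to 4. LRP1 eKO replicate 1 was the highest, and the other LRP1 eKO libraries lay close together above the WT range. The log2 fold change of Ptges was 0.33 with a standard error of 0.076 (limma adjusted p = 0.0067).

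Ptgis on chromosome 2 (167191805 to 167240604) encodes prostacyclin synthase, a cytochrome P450 enzyme of ECs and vascular smooth muscle. Its signal was 326, 337, 332 and 333 in WT replicates 1 to 4 and 281, 259, 291 and 272 in LRP1 eKO replicates 1 to 4. The WT libraries agreed closely (332 ± 4.51, SD, n = 4), and all LRP1 eKO libraries lay below them (276 ± 13.4, SD, n = 4). The log2 fold change was -0.27 with a standard error of 0.044 (limma adjusted p = 0.0011). Ptgis and Ptgs1 lay above 98.9% and 98.4% of the genes in the table by mean signal, in libraries that were also high in most mesothelial markers. Smooth muscle markers were mixed by the same rank. Acta2 (99.7%), Tagln (99.5%) and Smtn (92.2%) were high, whereas Actg2 (74.9%), Cnn1 (64.0%) and Myh11 (49.6%) were lower.

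Ptgds on chromosome 2 (25466709 to 25470046), the lipocalin-type PGD2 synthase, was below the filter. Its signal was 0.450, 0.0634, 0.264 and 0.571 in WT replicates 1 to 4 and between 0.154 and 0.235 in LRP1 eKO libraries. The WT range enclosed all LRP1 eKO libraries. Fitted without the filter, its log2 fold change was -0.16 (95% interval -0.41 to 0.09, limma adjusted p = 0.33), and without WT replicate 2 it was -0.26 (limma adjusted p = 0.036).

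For breakdown, Hpgd on chromosome 8 (56294585 to 56321043) encodes 15-hydroxyprostaglandin dehydrogenase, which oxidizes PGE2 and other prostaglandins to forms with little activity. The Hpgd signal was 1.15, 1.32, 1.19 and 0.914 in WT replicates 1 to 4 and 3.19, 3.00, 3.25 and 3.34 in LRP1 eKO replicates 1 to 4. The lowest LRP1 eKO library was far above the highest WT library. LRP1 eKO replicate 2, which was low in macrophage genes, stood close to the other LRP1 eKO libraries. Hpgd rose by 0.97 on the log2(signal + 1) scale with a standard error of 0.072 (limma adjusted p = 8.6e-06), the smallest adjusted p of the 10 genes. This scale understates the change of low signals, and the ratio of the mean signals was 2.79, or 1.48 as log2. Hpgd missed the 2-fold threshold narrowly on the log2(signal + 1) scale, and passed it with a pseudocount of 0.1 and, at 1.01, without WT replicate 2.

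**Figure D2:**
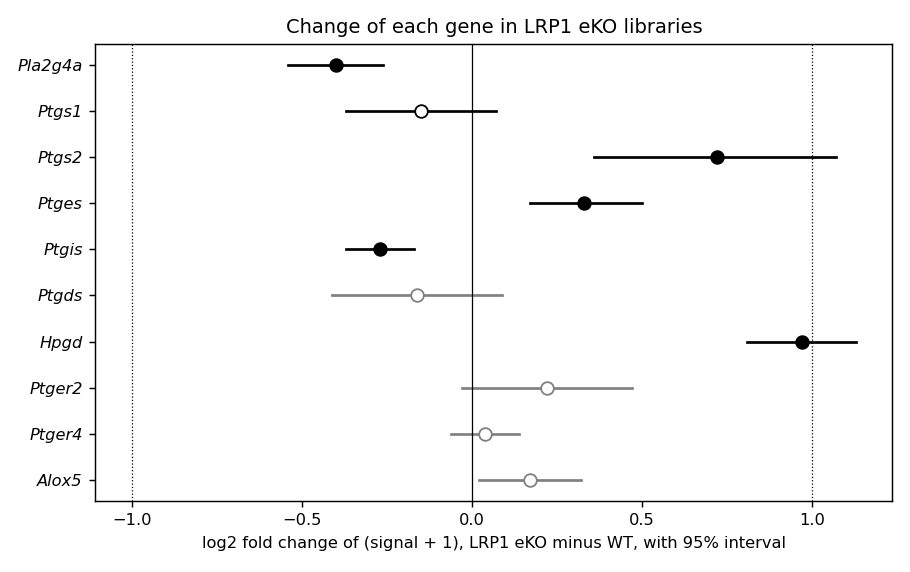
Log2 fold change of signal + 1 (x axis, LRP1 eKO minus WT) with its 95% interval for each of the 10 genes, from limma. Filled circles have an adjusted p below 0.05, gray marks genes below the signal filter and fitted without it, and dotted lines mark a 2-fold change. Hpgd (0.97), Ptgs2 (0.72) and Ptges (0.33) lie above 0, and Pla2g4a (-0.40) and Ptgis (-0.27) below it.

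Of the EP receptor genes, Ptger2, Ptger3 and Ptger4 had signals below 1 in every library. Ptger1 was the exception and passed the filter, its mean signal being 8.27 (WT) and 8.77 (LRP1 eKO). Ptger2 on chromosome 14 (44988195 to 45003820) encodes EP2 and Ptger4 on chromosome 15 (5206661 to 5244187) encodes EP4, which both raise cAMP when PGE2 binds. Both were below the filter and were fitted without it, a fit in which 12.0% of 17959 genes were called higher and 15.3% lower. The Ptger2 signal was 0.211, 0.217, 0.182 and 0.237 in WT replicates 1 to 4 and 0.580, 0.112, 0.608 and 0.418 in LRP1 eKO replicates 1 to 4. Replicates 1, 3 and 4 of LRP1 eKO were above all WT libraries, whereas LRP1 eKO replicate 2 was below them. The difference of Ptger2 did not pass the threshold (log2 fold change 0.22, limma adjusted p = 0.17). It did without LRP1 eKO replicate 2, its lowest library (0.34, limma adjusted p = 0.0025).

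The Ptger4 signal was 0.495, 0.661, 0.709 and 0.668 in WT replicates 1 to 4 and 0.694, 0.668, 0.661 and 0.664 in LRP1 eKO replicates 1 to 4. The groups overlapped, and a difference was not detected (log2 fold change 0.04, 95% interval -0.06 to 0.14, limma adjusted p = 0.59). In GENCODE M21, 15.3% of the exonic bases of Ptger4 overlap the pseudogene Gm15937 on the other strand, and 4.7% of those of Ptger2 overlap the antisense gene Gm17173. Whether the libraries kept the strand is not stated, so that reads in these stretches cannot be assigned with certainty. For Ptgs1 and Ptgis the overlap with genes on the other strand was 3.8% and 6.1%.

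In the leukotriene branch, Alox5 on chromosome 6 (116410077 to 116461178) encodes 5-lipoxygenase. Its signal was 0.0354, 0.0361, 0.0844 and 0.122 in WT replicates 1 to 4 and 0.275, 0.327, 0.109 and 0.112 in LRP1 eKO replicates 1 to 4. LRP1 eKO replicates 1 and 2 were above all WT libraries, and replicates 3 and 4 were within the WT range. Alox5 was below the filter, and its difference did not pass the threshold without it (log2 fold change 0.17, limma adjusted p = 0.087). The highest Alox5 signal was that of LRP1 eKO replicate 2, the library with the lowest macrophage signal.

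Pairs of genes were then compared within each library, as a difference of log2(signal + 1). The log2 ratio of Ptgs2 to Ptgs1 was -4.31, -4.20, -4.09 and -4.57 in WT replicates 1 to 4 and -3.32, -3.56, -3.48 and -3.34 in LRP1 eKO replicates 1 to 4. The balance shifted toward Ptgs2 in every LRP1 eKO library, by 0.86 on average (exact two-sided permutation test, p = 0.029, adjusted p = 0.043 over 3 ratios). The log2 ratio of Hpgd to Ptges, an enzyme of breakdown against one of synthesis, was -2.03 ± 0.20 in WT and -1.40 ± 0.13 (SD, n = 4 each) in LRP1 eKO libraries. Although both genes rose, this ratio was higher by 0.64 in LRP1 eKO libraries without overlap (exact two-sided permutation test, p = 0.029, adjusted p = 0.043). The log2 ratio of Ptger4 to Ptger2 was 0.43 ± 0.094 in WT and 0.24 ± 0.24 (SD, n = 4 each) in LRP1 eKO libraries, and its difference did not pass the threshold (exact two-sided permutation test, p = 0.20, adjusted p = 0.20). The size of the Hpgd to Ptges difference depended on the pseudocount, with 1.05 at 0.1 and 0.18 at 5. That of Ptger4 to Ptger2, genes with signals below 1 in every library, was -0.19, and became -0.54 at 0.1 and -0.05 at 5.

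**Figure D3:**
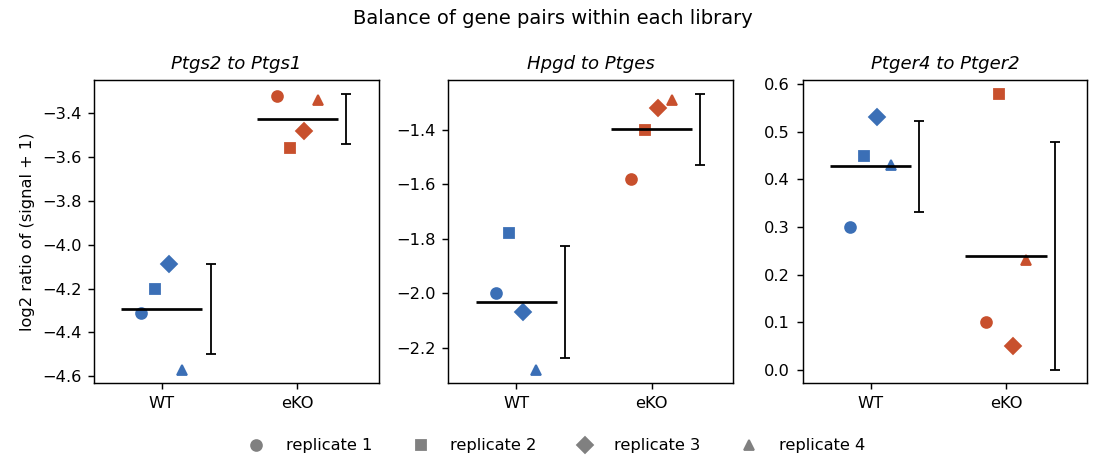
Log2 ratio of signal + 1 (y axis) for 3 pairs of genes within each of the 4 WT and 4 LRP1 eKO (eKO) libraries. Symbols are libraries, horizontal lines means and vertical bars ± 1 SD (n = 4). The Ptgs2 to Ptgs1 and Hpgd to Ptges ratios were higher in all eKO than in all WT libraries, and the Ptger4 to Ptger2 ratio overlapped.

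Other genes of eicosanoid metabolism were described from 6 lists. Of 69 further genes found in the table, 33 passed the filter, and of these 4 were called higher and 7 lower, 1 of them (Alox5ap) with a 2-fold change. Over all genes tested, 19.0% were called higher and 22.2% lower, so that the share called lower was near this background and the share called higher somewhat below it. The small counts within each list are given beside the same background, as a description of single genes. Their median log2 fold change was -0.02, against -0.01 over all genes tested. In arachidonate release, 2 of 6 tested genes rose and 1 fell, against 19.0% and 22.2% of all genes. Plaa, a gene named for activation of phospholipase A2, went from 27.4 ± 0.638 to 31.3 ± 0.910 (SD, n = 4 each; limma adjusted p = 0.0065). Pla2g15, the lysosomal phospholipase A2, went from 13.7 ± 0.619 to 17.3 ± 2.03 (SD, n = 4 each; limma adjusted p = 0.012). Pla2g12a, a secreted phospholipase A2, went from 16.2 ± 1.29 to 14.2 ± 0.547 (SD, n = 4 each; limma adjusted p = 0.040), a call that was lost when any library other than WT replicate 2 was left out (limma adjusted p between 0.056 and 0.10). Of 7 tested synthase genes, 1 fell, Cbr1, a carbonyl reductase that converts PGE2 to PGF2 alpha (25.4 ± 3.98 to 19.4 ± 1.19, SD, n = 4 each; limma adjusted p = 0.013).

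Of 7 tested genes of transport and breakdown, 1 rose and 2 fell, which is near the background of 19.0% and 22.2%. Slco3a1, an organic anion transporter that carries prostaglandins, rose from 7.25 ± 0.395 to 9.35 ± 0.670 (SD, n = 4 each; limma adjusted p = 0.0028). Ptgr1, the reductase that acts after Hpgd in the breakdown of prostaglandins, fell from 37.5 ± 1.24 to 30.9 ± 1.13 (SD, n = 4 each; limma adjusted p = 0.0012). Cbr3, another carbonyl reductase, fell by 0.41 on the log2 scale (limma adjusted p = 0.0016). Hpgd and Ptgr1, which act in sequence, thus differed in direction, with no overlap of the groups for either gene. The 3 tested genes of the receptor list were the prostanoid receptors Ptger1 and Tbxa2r and the nuclear receptor Pparg. Of these, 0 were called (limma adjusted p between 0.38 and 0.66), and 0 had an unadjusted limma p below 0.05.

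Of 6 tested genes of the lipoxygenase and leukotriene list, 1 rose and 2 fell, again near the background of 19.0% and 22.2%. Mgst2, a microsomal transferase that can make leukotriene C4, fell from 20.8 ± 3.59 to 10.1 ± 1.92 (SD, n = 4 each), which is 48.4% of the WT mean (log2 fold change -0.98, limma adjusted p = 0.00055). Cysltr1, a receptor for cysteinyl leukotrienes, was lower at the edge of the threshold (log2 fold change -0.29, limma adjusted p = 0.048). Its call held without WT replicate 4 or LRP1 eKO replicate 4 and was lost when any other library was left out (limma adjusted p between 0.069 and 0.12). Among 4 tested genes of the epoxygenase list, Ephx1, the microsomal epoxide hydrolase, fell from 201 ± 7.77 to 166 ± 3.11 (SD, n = 4 each; limma adjusted p = 0.00067). Ephx2, the soluble hydrolase of epoxides of arachidonate, was not called (log2 fold change 0.03, limma adjusted p = 0.75).

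**Figure D4:**
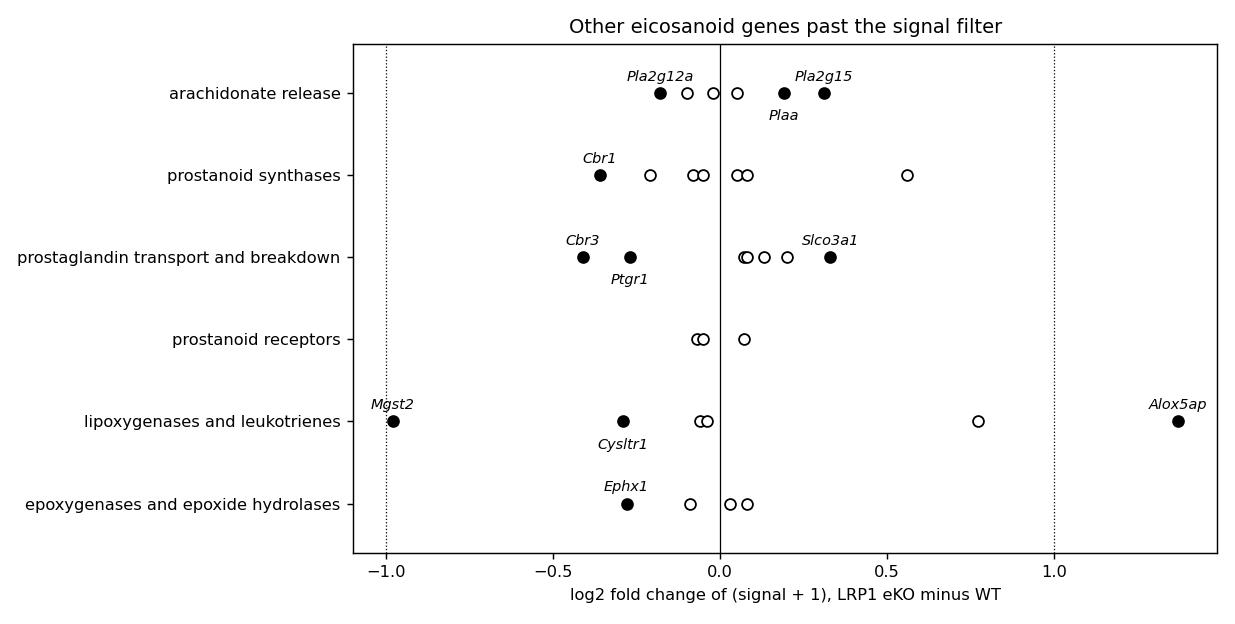
Log2 fold change of signal + 1 (x axis, LRP1 eKO minus WT) of the 33 further eicosanoid genes past the signal filter, by list (y axis). Filled circles have an adjusted p below 0.05 and are named, and dotted lines mark a 2-fold change. Alox5ap (1.37) and Mgst2 (-0.98) lie farthest from 0.

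Alox5ap, the membrane protein that presents arachidonate to 5-lipoxygenase, was the further gene past both thresholds. Its signal was 1.76, 1.30, 1.47 and 0.727 in WT replicates 1 to 4 and 8.62, 1.14, 8.69 and 4.99 in LRP1 eKO replicates 1 to 4. LRP1 eKO replicate 2 lay within the WT range, and the other LRP1 eKO libraries were well above it. Its log2 fold change was 1.37 (limma adjusted p = 0.026), but the groups overlapped (exact two-sided permutation test, p = 0.11). The limma adjusted p was 0.064, 0.070, 0.070 and 0.059 without WT replicate 4 or LRP1 eKO replicates 1, 3 or 4, and the log2 fold change was 1.72 (limma adjusted p = 0.00013) without WT replicate 4 and LRP1 eKO replicate 2 together.

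Tbxas1 (thromboxane synthase), Hpgds (the hematopoietic PGD2 synthase) and Dpep2 (a dipeptidase of leukotriene D4) were lowest of all in LRP1 eKO replicate 2. Alox5ap was instead lowest in WT replicate 4 (0.727). All of these genes were highest in LRP1 eKO replicates 1, 3 and 4, and Hpgds was named after its values were seen. For Tbxas1, the signal was between 1.02 and 2.39 in WT libraries, 4.97, 4.09 and 3.53 in LRP1 eKO replicates 1, 3 and 4, and 0.461 in LRP1 eKO replicate 2. For Dpep2, it was between 0.787 and 1.44 in WT libraries, 4.50, 4.92 and 2.37 in LRP1 eKO replicates 1, 3 and 4, and 0.609 in LRP1 eKO replicate 2. These genes, with Alox5ap and Ptger2, are expressed by macrophages among other cells, and the macrophage list was lowest in the same library. Among LRP1 eKO libraries, replicate 2 was also lowest for the sinusoidal endothelial (8.38), pan-endothelial (58.8), platelet (3.47) and neutrophil (2.58) lists. It was lowest for the stellate and erythroid lists too, and highest for the mesothelial and hepatocyte lists. Which cells gave these signals was not tested. With all libraries, Tbxas1, Hpgds and Dpep2 were not called, at limma adjusted p = 0.27, 0.18 and 0.10, whereas without LRP1 eKO replicate 2 all 3 were (limma adjusted p = 0.0028, 0.0054 and 0.0016). For Hpgd, Ptgs2, Ptges, Ptgis and Pla2g4a, LRP1 eKO replicate 2 lay outside the WT range, on the side of the other LRP1 eKO libraries. It was still the lowest LRP1 eKO library for each of these genes. For Ptgs2 it stood apart, at 13.2 against 17.4 to 18.0 in the other LRP1 eKO libraries.

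**Figure D5:**
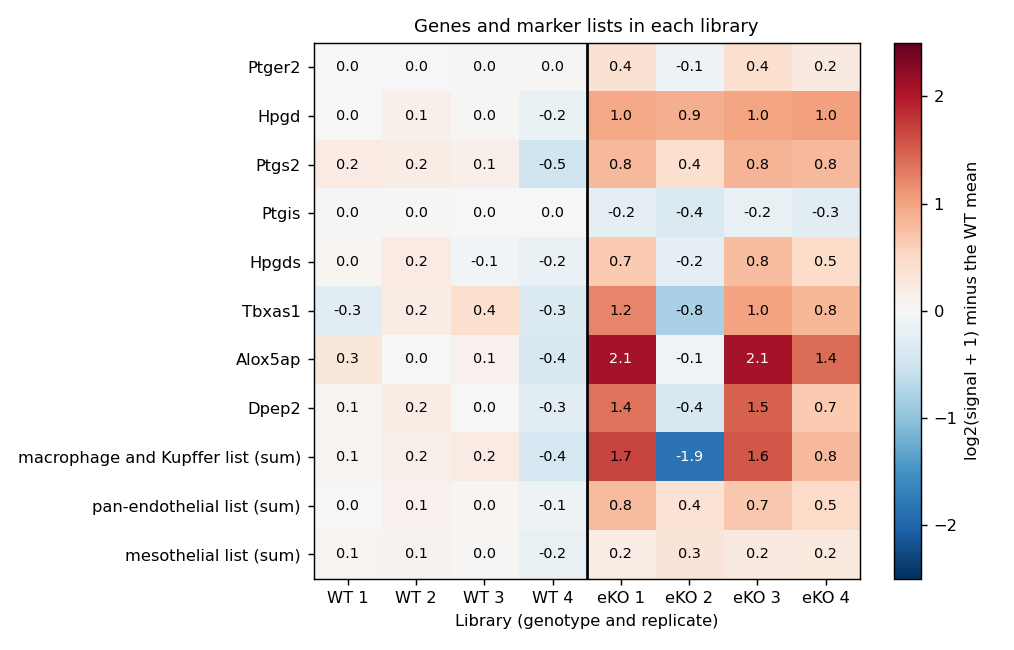
Log2(signal + 1) minus the mean of the 4 WT libraries (color and printed value) for 8 genes and the summed signal of 3 marker lists in each library (columns), chosen after their values were seen. LRP1 eKO replicate 2 is low for Ptger2, Hpgds, Tbxas1, Alox5ap, Dpep2 and the macrophage list, and close to the other LRP1 eKO libraries for Hpgd.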

How the data were processed

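Liver EC mRNA-seq libraries, 4 WT and 4 LRP1 eKO, were assigned by the sample labels. The authors deposited a quantile-normalized signal for 22520 protein-coding genes, and the unit before that step is not stated. The processing notes of the labels name TopHat2, Cufflinks and mm10, whereas the paper's methods name STAR, featureCounts and edgeR, and neither describes this table. Quantile normalization removes global shifts, and depth is unknown, so that precision was judged from the spread between libraries. From the deposited signal, log2(signal + 1) was compared between genotypes, without covariates, by limma 3.58.1 (R 4.3.3) with a mean-variance trend. Genes entered the fit when 4 or more of the 8 libraries had a signal of 1 or higher. Genes below the filter were read from a fit over all genes above 0 in any library. Permutation tests used scipy 1.17.1. The calculation was tested on simulated data. The genes and lists were chosen with earlier results of these data known.

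All 10 genes were named, with Lrp1, further eicosanoid genes past both thresholds or among the 4 with the smallest adjusted p of their list, and cell type markers beside a result, of which 1 is not reported here. Positions and overlaps came from GENCODE M21 on GRCm38, which is mm10, and promoter windows from RefSeq. Replicate numbers are shared by the groups in the labels but were not used to pair the libraries, except in the replicate block named below. Results were recomputed without the filter, with a mean signal of 5 as the minimum, with a pseudocount of 0.1 or 5, and with no trend, robust moderation, array weights, trimmed-mean centring, a replicate block, a ratio of arithmetic means, leaving out each library, and, added after seeing the data, leaving out WT replicate 4 and LRP1 eKO replicate 2 together.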

Additional observations from a re-analysis of the deposited data

Results flagged for a closer look

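By Dixon's test, 20 groups of 4 libraries were examined for the 10 genes, and 3 had a library far from the others, where chance gives about 1 in 20. The values are the gap of that library to its nearest neighbor as a share of the group's range. Ptgs2 was lowest in WT replicate 4 (0.877) and, in the LRP1 eKO group, lowest in replicate 2 (0.877). Ptges was highest in LRP1 eKO replicate 1 (0.962). The library farthest from its group median was WT replicate 4 for 61.7% of genes and LRP1 eKO replicate 2 for 37.2%. The cause was not tested.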

How the results depend on the processing

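The counts of called genes among the 10, 3 higher and 2 lower, were the same under the alternatives run, except that a minimum mean signal of 5 left out Hpgd and gave 2 higher. With a pseudocount of 0.1, 1 gene (Hpgd) passed the 2-fold threshold, and leaving out 1 library gave 0 to 1. For the further eicosanoid genes, leaving out 1 library gave 3 to 6 higher and 5 to 6 lower, with 6 higher without LRP1 eKO replicate 2, and leaving out WT replicate 4 and LRP1 eKO replicate 2 together gave 7 higher. The log2 fold change of Lrp1 was between -3.93 and -2.91 over the alternatives. The log2 fold change of Ptger4 was between -0.01 (without WT replicate 1) and 0.06 when 1 library was left out, and Ptger2 passed the threshold with array weights (0.29, limma adjusted p = 0.031). Alox5ap lost its call with no filter and with robust moderation (limma adjusted p = 0.063 and 0.061). As log2 ratios of arithmetic means, the changes were -0.86 for Ptgds, 1.02 for Ptger2 and 1.57 for Alox5, and these rest on signals below 1. With the replicate block, 3 of the 10 genes were higher and 2 lower, and 4 further genes were higher and 5 lower, Pla2g12a and Cysltr1 being lost (limma adjusted p = 0.052 and 0.079). The deviations of libraries with the same number correlated between -0.13 and 0.178, and those with different numbers between -0.264 and 0.212. A pairing by number was thus not seen, but 4 libraries in each group are too few to exclude it.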

Other observations

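Of the 69 further eicosanoid genes, 36 were below the filter, and 4 of them (Pla2g2f, Pla2g4d, Alox12e and Cyp4a14) were listed at 0 in all 8 libraries. Ptgir, the prostacyclin receptor, had a signal of 0.431 ± 0.0769 in WT and 0.473 ± 0.163 (SD, n = 4 each) in LRP1 eKO libraries. Slco2a1, the prostaglandin uptake transporter of ECs and other cells, had signals of 105 ± 16.4 and 114 ± 5.45 (SD, n = 4 each), and its difference did not pass the threshold (log2 fold change 0.13, limma adjusted p = 0.34). Both genes were named after their values were seen.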
